A study of Mus musculus with 768 samples.

Results

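Schwann cells (SCs), the glia of peripheral nerve, do not only wrap axons but also release factors that act on neurons and on the other cells of the nerve. The 9 genes described here are Cntf, Dhh, Gdnf, Bdnf, Ntf3, Lif, Pdgfa and Vegfa, which encode such factors, and Zfp91, a zinc finger gene with ubiquitin ligase activity whose exons overlap those of Cntf. They were chosen by name and found by their Ensembl identifiers, and all 9 are among the 25700 genes of the count table. Zfp91 was added because earlier results of these data had shown its counts to be high in myelinating cells. That level therefore chose it and is given as a description.

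The sciatic nerves of pups aged 5 days (P5) gave the single SCs. One cell went into each well of 2 plates with 384 wells, which were processed by Smart-Seq2, a full-length RNA protocol without molecular identifiers. All wells share 1 genotype: a P0Cre transgene, which expresses Cre recombinase under the promoter of the myelin protein zero gene, a Rosa26 allele in which Cre removes a stop before eYFP, and a βActin-DsRed reporter. Only cells positive for eYFP were taken, so the series holds cells that P0Cre had marked. Each plate pooled cells of male and female animals, each plate from its own animals, so every test below has n = 2 plates and cells are not counted as replicates.

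CNTF belongs to the cytokines that signal through gp130 (Il6st) together with the LIF receptor (Lifr) and a CNTF receptor alpha subunit (Cntfr), which activate JAK kinases and STAT3. It is known as a product of myelinating SCs that lacks a classical secretion signal. DHH is the hedgehog ligand of SCs, needed for a proper perineurium. GDNF, BDNF and NT-3 (Ntf3) bind receptors on neurons, and PDGF-A and VEGF-A act on mesenchymal and endothelial cells.

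Cells were assigned to 4 states by reads of 12 genes. Cycling cells had 5 reads or more of at least 3 of 10 cell cycle genes. The others were called immature below 10 CPM (counts scaled to 1000000 reads of the cell) of Ncmap, which encodes a myelin protein, intermediate at or above this value with less than 30000 CPM of the myelin gene Pmp22, and myelinating at or above both. Of 768 wells, 655 outside the plate corners had 1500 detected genes or more and were used. These were 57 cycling, 228 immature, 149 intermediate and 221 myelinating cells. Ncmap stood at 7.92 CPM in the highest cell below its limit and at 11.4 CPM in the lowest cell above it. Pmp22 stood at 29896 CPM just below and 30776 CPM just above its limit. Between 20000 and 30000 CPM lay 38 cells and between 30000 and 40000 CPM lay 35, so this limit falls in a range that holds cells on both sides. Whether intermediate and myelinating cells are separate types was not tested here. The study itself described a pro-myelinating and a myelinating cluster at P5.

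The retained cells of plate 1 held 219192586 reads and those of plate 2 held 202742928. A cell held a median of 450308 reads in the immature and 765668 in the myelinating state, so shares of cells are also given after thinning each cell to 100000 reads. At least 5 reads of each of 3 SC lineage markers were present in 590 of 655 cells (90.1%). No cell met the same rule for fibroblast-like, endothelial, immune, pericyte or skeletal muscle markers, which allows a share of up to 0.458%, while 4 cells met it for perineurial and 2 for neuronal markers. Single markers could still be common. Of the fibroblast-like list, Col1a2 had reads in all 655 cells (1194 CPM), while Pdgfra, Dcn, Lum, Fbln1 and Pi16 each had reads in 5.34% of cells or fewer.

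Cntf and Zfp91 lie on the minus strand of chromosome 19 (GRCm38, GENCODE vM21). Cntf spans chr19:12763660-12765632 and Zfp91 spans chr19:12763660-12796126. The coding transcript Zfp91-201 ends 1388 bases before Cntf starts. A longer transcript, Zfp91-203, annotated as a target of nonsense-mediated decay, runs on into Cntf. Its exon 12 lies inside exon 1 of Cntf and its exon 13 has the same borders as exon 2 of Cntf. The genes share 847 exon bases, which are 78.9% of the 1073 exon bases of Cntf and 8.43% of the 10046 of Zfp91. Only 226 bases at the 5′ end of Cntf, at chr19:12765407-12765632, belong to Cntf alone. The lines below give both transcripts at the point where they join, to show which part of a read could tell them apart. Capitals mark the first 30 shared bases (chr19:12765377-12765406), in which the start codon of Cntf begins at base 13. Lower case marks the 12 bases before them, which differ as a stretch but not at every position.
Cntf-201: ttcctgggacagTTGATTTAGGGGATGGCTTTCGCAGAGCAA
Zfp91-203: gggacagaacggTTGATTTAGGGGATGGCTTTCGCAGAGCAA
From the first capital on, the transcripts are identical for all remaining 847 bases.

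**Figure D1:**
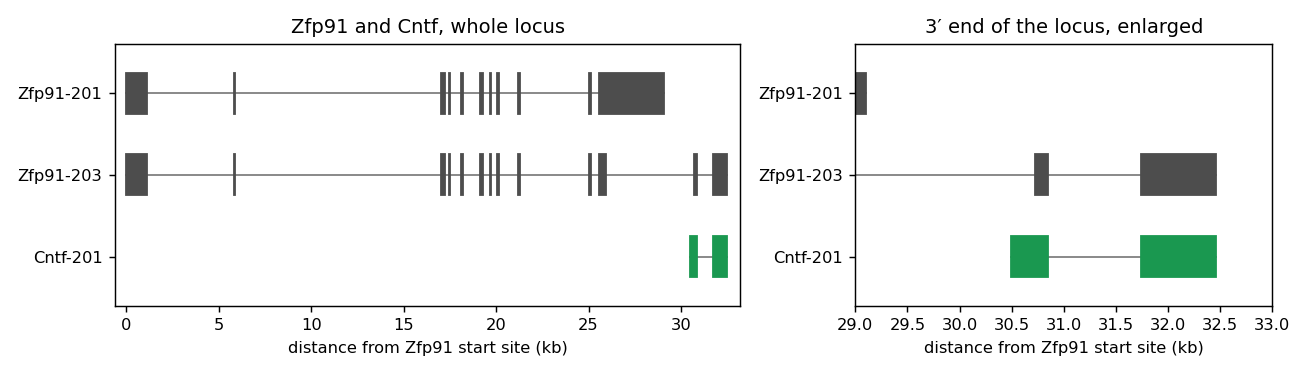
Exons (boxes) and introns (lines) of Zfp91-201, Zfp91-203 and Cntf-201 by distance in kb from the Zfp91 start site, for the whole locus (left) and its 3′ end (right). Both exons of Cntf coincide in whole or in part with the last exons of Zfp91-203, and Zfp91-201 ends before Cntf begins.

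The start sites lie 30494 bases apart, and the sequences before them differ in composition. The 250 bases upstream of each RefSeq start (GRCm38.p6, minus strand, written 5′ to 3′) are shown because the counts of both genes moved together while their promoters are separate. Capitals mark each CG dinucleotide, which reads the same on both strands.
Cntf, chr19:12765633-12765882: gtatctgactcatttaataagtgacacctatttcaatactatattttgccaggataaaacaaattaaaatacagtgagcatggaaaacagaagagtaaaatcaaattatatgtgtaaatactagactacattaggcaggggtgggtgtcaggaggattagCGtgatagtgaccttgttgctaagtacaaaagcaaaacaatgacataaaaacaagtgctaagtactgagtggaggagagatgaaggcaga
Zfp91, chr19:12796124-12796373: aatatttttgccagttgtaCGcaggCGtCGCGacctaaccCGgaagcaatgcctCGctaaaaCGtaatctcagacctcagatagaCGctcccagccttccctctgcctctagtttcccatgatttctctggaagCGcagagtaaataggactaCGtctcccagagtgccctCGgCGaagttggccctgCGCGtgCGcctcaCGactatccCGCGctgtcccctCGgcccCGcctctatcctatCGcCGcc
The Cntf window holds 1 CG and is 35.6% G and C. The Zfp91 window holds 22 CG and is 58.0% G and C. Of 32851 RefSeq promoter windows, 92.1% held at least 1 CG and 14.8% held at least 22, with a median of 6. The Cntf window is thus poor and the Zfp91 window rich in CG for its kind, which describes the letters and not their use.

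Cntf was high in myelinating cells and low in the other states. Its level in the reads summed per state was 12.5 CPM in plate 1 and 4.74 CPM in plate 2 in cycling cells. In immature cells it was 4.06 and 10.8 CPM, and in intermediate cells 14.6 and 16 CPM. In myelinating cells it reached 228 and 298 CPM (263 ± 48.9, SD, n = 2). Both myelinating values lay above all 6 others, and the ranges of cycling and immature cells overlapped. Several of the low values rest on 1 cell each. In cycling cells, 1 cell held 232 of 248 Cntf reads in plate 1 and 1 cell held all 66 in plate 2. In plate 2, 1 immature cell held 538 of 648 reads. In plate 1, 1 intermediate cell held 678 of 684 reads. The log2 change of Cntf was 4.35 (SE 0.594) from intermediate to myelinating cells and 5.52 (SE 0.628) from immature to myelinating cells, given without a test because the genes were chosen with this rise known. From immature to intermediate cells the log2 change was 1.17 (SE 0.528), which did not pass (edgeR adjusted p 0.472), and at an Ncmap limit of 50 CPM it was -0.59.

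The rise of Cntf went with the number of cells that held it. In myelinating cells, 103 of 221 (46.6%, exact 95% interval 39.9 to 53.4) had a Cntf read, against 3 of 57 cycling (5.26%, 1.10 to 14.6), 8 of 228 immature (3.51%, 1.53 to 6.80) and 11 of 149 intermediate cells (7.38%, 3.74 to 12.8). Thinned to 100000 reads, the shares were 45.7% in myelinating, 5.45% in cycling, 2.75% in immature and 5.67% in intermediate cells. Depth thus left the order of myelinating cells over the rest as it was. In the myelinating cells with reads the level ran from 2.61 to 3018 CPM with a median of 351 CPM. In the 8 immature cells with reads it ran from 4.24 to 1272 CPM with a median of 235 CPM. The few Cntf cells of other states therefore covered part of the same range.

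The plates differed in this share. Myelinating cells with Cntf were 39 of 108 (36.1%, 27.1 to 45.9) in plate 1 and 64 of 113 (56.6%, 47.0 to 65.9) in plate 2, and the intervals did not overlap. Within the myelinating state, Cntf was found more often at higher Pmp22, a gene of the state rule. Between 30000 and 50000 CPM of Pmp22, Cntf was present in 11.1% of cells in plate 1 and 22.2% in plate 2. Between 50000 and 70000 CPM the shares were 21.9% and 56.4%, and at 70000 CPM or more they were 70% and 76.6%. The plates were far apart in the middle range and close in the highest. Thinning gave 11.8, 18.8 and 67.5% in plate 1 and 22.2, 56.4 and 74.5% in plate 2 for the same 3 ranges. These shares rest on 27 to 47 cells each, and intervals here cover counting error only.

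**Figure D2:**
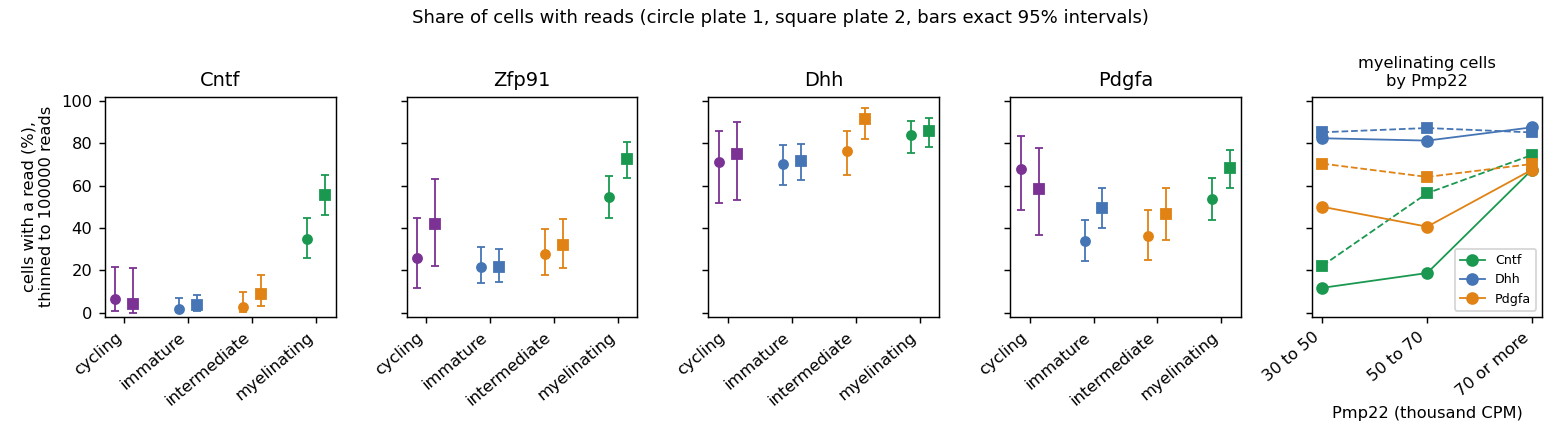
Percent of cells with a read of Cntf, Zfp91, Dhh and Pdgfa by state and plate after thinning each cell to 100000 reads, with exact 95% intervals (counting error only), and, at the right, percent of myelinating cells with reads by Pmp22 range (solid lines plate 1, dashed plate 2). Cntf lay below 10% outside the myelinating state and reached 34.9% and 55.8% in it, while Dhh lay above 70% in every state.

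Zfp91 counts followed those of Cntf. Zfp91 had 56.4 and 27.6 CPM in cycling cells of plates 1 and 2, 17.3 and 42.3 CPM in immature cells, 36.0 and 46.2 CPM in intermediate cells and 261 and 319 CPM in myelinating cells (290 ± 41.2, SD, n = 2). The ranges of the first 3 states overlapped and both myelinating values lay above them. The log2 change was 3.07 (SE 0.486) from intermediate and 3.67 (SE 0.499) from immature to myelinating cells, without a test. From immature to intermediate cells it was 0.60 (edgeR adjusted p 0.729).

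Cell by cell, all 125 cells with a Cntf read also had Zfp91 reads. In 63 of them both genes had exactly the same number, in 7 Zfp91 had 1 fewer and in 55 it had more. No cell had Zfp91 lower than Cntf by 2 reads or more, although 226 exon bases of Cntf lie outside Zfp91 in the annotation used here. Among cells with Cntf, 71 (56.8%) had the 2 counts within 1 read of each other. A further 163 cells had Zfp91 reads and none of Cntf. Among the cells without Cntf, they were 53 of 118 in myelinating (44.9%, exact 95% interval 35.7 to 54.3), 21 of 54 in cycling (38.9%, 25.9 to 53.1), 40 of 138 in intermediate (28.99%, 21.6 to 37.3) and 49 of 220 in immature cells (22.3%, 16.96 to 28.4). With the cells of both plates pooled, the myelinating and immature intervals did not overlap, but they cover counting error only. In plate 1 the shares were 34.8% (23.7 to 47.2) in myelinating and 23.3% (15.5 to 32.7) in immature cells, and the intervals overlapped. In plate 2 they were 59.2% (44.2 to 73.0) and 21.4% (14.3 to 29.9), and the intervals did not. Thinned to 100000 reads the shares were 35.3% (26.8 to 44.6) in myelinating, 28.8% in cycling, 26.3% in intermediate and 19.3% (14.3 to 25.3) in immature cells. The 2 counts are thus not independent measurements, and from the counts alone reads of one gene cannot be told apart from reads of the other in the shared exons.

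**Figure D3:**
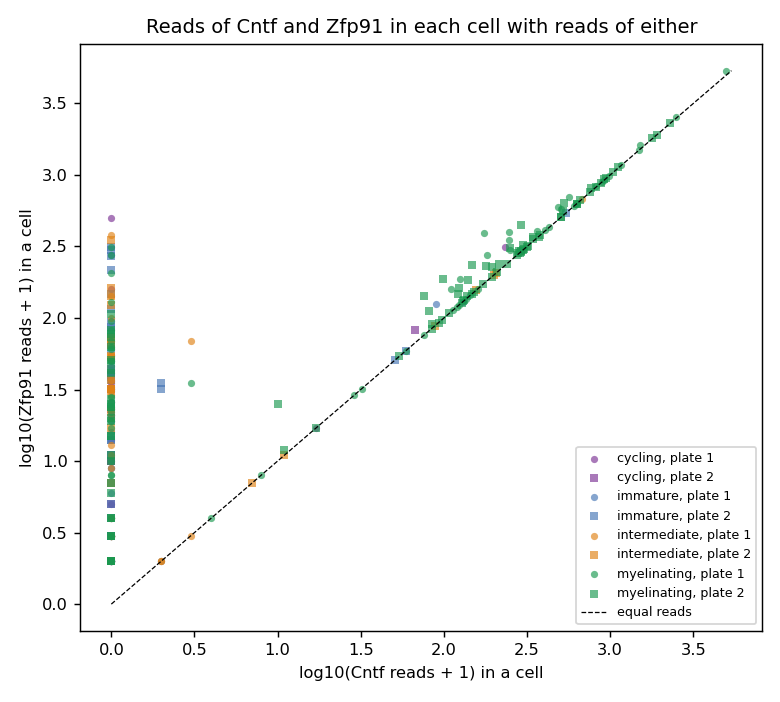
Reads of Cntf (horizontal) and Zfp91 (vertical) in each cell with reads of either, as log10(reads + 1), coloured by state, with circles for plate 1 and squares for plate 2. Cells with Cntf lie above, on or at most 1 read below the line of equal reads, and the 163 cells without Cntf form the column at the left.

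Subtracting the Cntf reads of each cell from its Zfp91 reads left a remainder in which no state stood apart in both plates. It was 43.9 and 22.8 CPM in cycling, 13.2 and 31.5 CPM in immature, 21.4 and 30.3 CPM in intermediate and 32.4 and 21.6 CPM in myelinating cells, and all 4 ranges overlapped. Cntf reads made up 87.6 and 93.2% of Zfp91 reads in myelinating cells, 40.5 and 34.6% in intermediate, 23.5 and 25.6% in immature and 22.1 and 17.2% in cycling cells. The Cntf difference in CPM between myelinating and intermediate cells was 99.5% of the Zfp91 difference, and between myelinating and immature cells 98.2%. With the remainder in place of Zfp91 in the fit, an analysis added after the data had been seen, the log2 change was 0.31 (SE 0.602, edgeR adjusted p 0.984) from intermediate and 0.66 (SE 0.604, edgeR adjusted p 0.723) from immature to myelinating cells. A change of this remainder was not detectable with 2 plates.

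**Figure D4:**
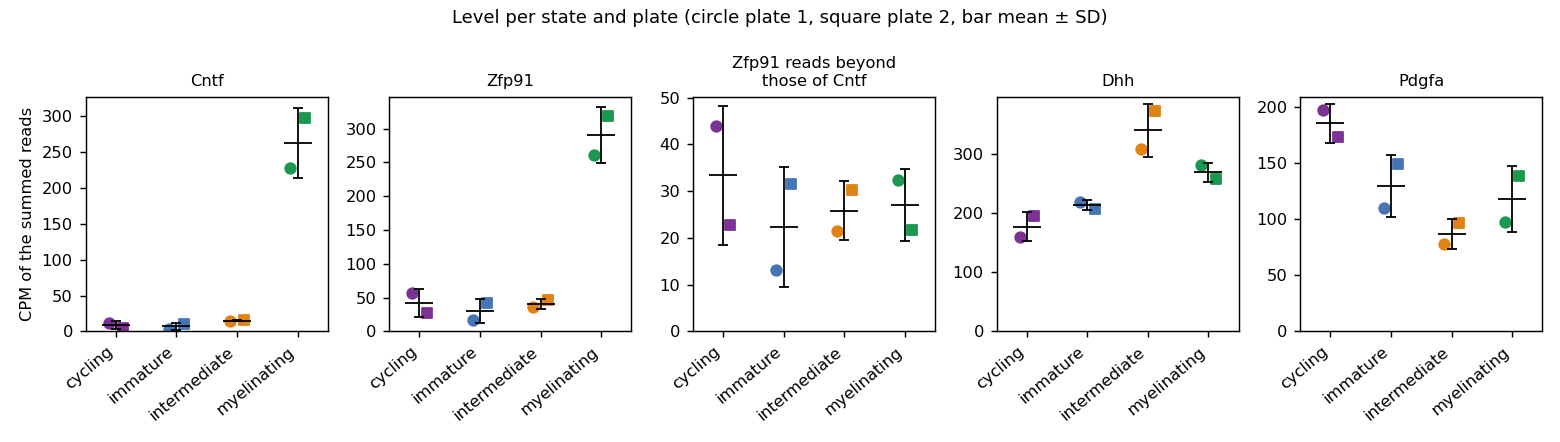
CPM of the summed reads per state for Cntf, Zfp91, Zfp91 reads beyond those of Cntf, Dhh and Pdgfa (circles plate 1, squares plate 2, bars mean ± SD, n = 2, each panel with its own axis from 0). Cntf and Zfp91 share a step up in myelinating cells that is not seen in the remainder.

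Dhh was the member found in most cells. It had reads in 537 of 655 cells (82.0%), among them 80.7% of cycling, 73.7% of immature, 87.9% of intermediate and 86.9% of myelinating cells. Its level was 159 and 194 CPM in cycling, 219 and 207 CPM in immature, 308 and 372 CPM in intermediate and 280 and 258 CPM in myelinating cells of plates 1 and 2. In CPM by library size the order was intermediate, myelinating, immature and cycling, and no neighbouring ranges overlapped. With the scaling used in the fit, 2 steps of this order turned between plates. The log2 change from intermediate to myelinating cells was 0.0922 in plate 1 and -0.27 in plate 2. From immature to cycling cells it was -0.37 in plate 1 and 0.0234 in plate 2. The log2 change of Dhh was 0.81 (SE 0.189) from immature to intermediate and 0.72 (SE 0.189) from immature to myelinating cells, and neither passed over all 13892 genes tested (edgeR adjusted p 0.0797 and 0.0731). DESeq2 called both (adjusted p 0.00304 and 0.00645), and over the 12 alternatives the adjusted p ran from 0.00304 to 0.155 for the former and from 0.00645 to 0.384 for the latter. From intermediate to myelinating cells the log2 change was -0.09 (SE 0.188, edgeR adjusted p 0.987). Unlike Cntf, Dhh showed no step with Pmp22 within the myelinating state, where its share of cells was 77.8, 87.5 and 90.0% over the 3 ranges in plate 1 and 88.9, 89.7 and 87.2% in plate 2. The difference between the genes in this respect was not tested. Dhh (chr15:98891152-98898540) shares 546 exon bases with Rhebl1 on the same strand, which had 5511 reads against 110154 of Dhh. It also shares 1107 exon bases with Gm49442 on the other strand, which is not in the count table. The counts of Dhh are uncertain to the extent of both overlaps.

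Pdgfa had reads in 360 of 655 cells (55.0%). Its level was 198 and 173 CPM in cycling, 110 and 149 CPM in immature, 77.9 and 96.8 CPM in intermediate and 97.7 and 139 CPM in myelinating cells. Cycling cells were the highest in both plates, and the ranges of myelinating and immature cells overlapped. The log2 change was 0.62 (SE 0.269, edgeR adjusted p 0.318) from immature to cycling cells, -0.44 (SE 0.268, edgeR adjusted p 0.630) from immature to intermediate cells and 0.69 (SE 0.269, edgeR adjusted p 0.453) from intermediate to myelinating cells. None passed. From immature to myelinating cells it was 0.25 (SE 0.268, edgeR adjusted p 0.786), and with scaling by library size alone it was -0.13. Cells with Pdgfa reads were 64.9% of cycling, 50% of immature, 45.0% of intermediate and 64.3% of myelinating cells. Pdgfa shares 813 exon bases with 6330403L08Rik on the other strand, which is not in the count table, and its counts are uncertain to that extent.

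Gdnf, Ntf3 and Lif had no read in any of the 768 wells. In the 655 retained cells this allows a share of cells with a read of up to 0.458% (3 cells) for each. Bdnf had 240 reads in 2 cells, both of plate 2: 209 reads in an intermediate cell (450 CPM of that cell) and 31 reads in a myelinating cell (101 CPM). Vegfa had 217 reads in 15 cells, 1 cycling, 6 immature, 2 intermediate and 6 myelinating, with 1 to 53 reads each. Bdnf and Vegfa passed the filter on low counts through these few cells, so their fitted changes say little, and none passed the test in the comparisons where they had reads (edgeR adjusted p from 0.545 to 0.987). GDNF, BDNF, NT-3 and LIF transcripts were thus not detectable or nearly so at this depth.

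Over the 9 members, 4 were tested and had reads in the comparisons with myelinating cells (Dhh, Pdgfa, Bdnf and Vegfa), 6 between intermediate and immature cells, where Cntf and Zfp91 were tested too, and 5 between cycling and immature cells, where Bdnf had no reads. None passed an edgeR adjusted p of 0.05 in any of the 4 comparisons, while without adjustment Dhh and Pdgfa had p under 0.05 in 2 comparisons each. Over all 13892 genes the share called was 1.97% for intermediate against immature, 0.777% for myelinating against intermediate, 5.1% for myelinating against immature and 2.48% for cycling against immature cells. A count of 0 among so few members is not far from these shares. Of the 709 genes called between myelinating and immature cells, 360 were higher and 349 lower, and with library size alone 251 were higher and 702 lower, a scaling that moved the median log2 change of all genes by -0.38. For myelinating against intermediate cells the split went from 49 higher and 59 lower to 29 and 119.

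Per kilobase of exon, which allows comparison between genes, Dhh had 48.5 and Pdgfa 41.6 CPM per kb in immature cells, where Cntf had 6.93 and Zfp91 2.96 CPM per kb (means of the plates). In myelinating cells Cntf led with 245 ± 45.6 CPM per kb, followed by Dhh with 61.1 ± 3.65, Pdgfa with 38.0 ± 9.36 and Zfp91 with 28.9 ± 4.11 (SD, n = 2). Pdgfa and Zfp91 lay within their spread of each other. Cntf reads made up 87.6 and 93.2% of the Zfp91 reads in these cells, however. The Zfp91 value is therefore not a level of that gene alone and does not rank it against Pdgfa. Of the Cntf exon bases 78.9% are shared with Zfp91, so the Cntf value may hold reads of Zfp91 too. The counts per kb of Cntf and Dhh stood in opposite order in immature and myelinating cells. With this overlap the order is one of counts and not of Cntf transcripts alone.

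Over single cells, the genes most like Cntf in log2(CPM + 10) were Zfp91 (Pearson r 0.80 in the 325 cells of plate 1 and 0.83 in the 330 of plate 2), H2-DMa (0.54 and 0.50) and Sema5a (0.50 and 0.54), among 8263 genes ranked by the smaller r of the plates. Pmp22, which defines the states, had r of 0.37 and 0.51 with Cntf. For Zfp91 the leading genes were Cntf, Cav1 (0.56 and 0.46) and H2-DMa (0.46 and 0.41). The leading genes for Dhh (Gm37389, Pmp2 and Abhd12) had r of at most 0.29 and those for Pdgfa (Tuba1a, Tubb2a and Prrg3) of at most 0.26. Cells of 1 plate share its pool of libraries and differ in depth, and these values describe likeness only. Dhh and Pdgfa had no gene that followed them closely.

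The other genes of the same pathways were read from the fit over all genes, as lists of ligands, receptors and transducers. Of 96 listed genes 71 were tested, and between myelinating and immature cells 11 passed (15.5%, beside 5.1% over all genes). Of these, 1 was higher (2.59% of all genes were) and 10 were lower (2.51% of all genes were). The lists were chosen with earlier results known, so this count describes them and no more. Under DESeq2 the count was 21. Setting genes at 0 in a state to the level of 3 reads left the median of each of the 7 lists as given below.

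Of 14 tested genes of the gp130 list, which holds the pathway that receives CNTF, none passed in any of the 4 comparisons. Over all genes the share called was 0.777 to 5.1%, and a count of 0 among so few genes is not far from that. The median log2 change of the list was -1.001 from immature to myelinating cells, beside -0.04 over all genes. Il6st, which encodes gp130, had 55.0 and 36.4 CPM in immature and 7.96 and 18.4 CPM in myelinating cells (edgeR adjusted p 0.442). Lifr had 30.7 and 43.2 CPM in immature and 17.9 and 13.7 CPM in myelinating cells (edgeR adjusted p 0.635). Cntfr had reads in 16 cells, at 9.15 and 6.61 CPM in cycling and 10.2 and 2.04 CPM in immature cells. It was at 0 in both plates in intermediate and myelinating cells (edgeR adjusted p 0.0616 for the latter against immature cells). None of the 221 myelinating cells, the richest in Cntf, had a read of its alpha receptor. By the limit of 3 counts for a count of 0, this allows an expected 3 such cells among 221. The 946 Cntfr reads came from 16 cells, so a limit counted in pooled reads would be too low. Socs3, a feedback inhibitor of this pathway, had 207 and 214 CPM in immature and 96.4 and 75.6 CPM in myelinating cells (edgeR adjusted p 0.201).

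Ntrk2 and Ntrk3, which encode neurotrophin receptors, were lower in myelinating cells. Of 10 tested genes of this list 3 were lower in myelinating than in immature cells and none higher (median log2 change -0.80). Ntrk2, the receptor of BDNF, had 77.6 and 54.3 CPM in immature, 22.2 and 18.3 CPM in intermediate and 7.89 and 1.88 CPM in myelinating cells. It fell by 3.37 on the log2 scale (SE 0.688, edgeR adjusted p 0.0236). Ntrk3, the receptor of NT-3, had 51.7 and 67.6 CPM in immature and 3.11 and 3.28 CPM in myelinating cells and fell by 3.84 (SE 0.776, edgeR adjusted p 0.0225). The remaining call was Sorcs2, a receptor of the sortilin family, named after its values were seen, at 20.1 and 38.7 CPM in immature and 0.0102 and 0.183 CPM in myelinating cells. Ngfr, the low affinity neurotrophin receptor, had 77.2 and 55.1 CPM in immature and 0.528 and 0.0459 CPM in myelinating cells but did not pass (edgeR adjusted p 0.0683). In intermediate cells it differed between plates, at 0.448 and 44.0 CPM. The ligand gene Ntf5 had no reads in the retained cells.

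In the GDNF family list 3 of 7 tested genes were lower in myelinating than in immature cells and none higher, while the median log2 change was 1.81, carried by genes with few reads. Ncam1, an adhesion molecule of immature SCs that can also bind GDNF, had 516 and 473 CPM in immature, 93.6 and 56.1 CPM in intermediate and 2.98 and 3.89 CPM in myelinating cells. These states did not overlap, while cycling cells, at 444 and 586 CPM, overlapped with immature cells. Ncam1 fell by 2.58 on the log2 scale from immature to intermediate cells (SE 0.296, edgeR adjusted p 0.00337) and by a further 4.21 to myelinating cells (SE 0.321, edgeR adjusted p 0.000986). Gfra2, a coreceptor for neurturin, had 23.4 and 20.9 CPM in immature and 0.203 and 0.16 CPM in myelinating cells and fell by 6.53 (SE 0.886, edgeR adjusted p 0.00312). The remaining call was Gfra3, a coreceptor for artemin with reads in 21 cells, named after its values were seen. Gfra1, the coreceptor for GDNF, had 7.43 and 0.901 CPM in immature and 32.6 and 43.7 CPM in myelinating cells and did not pass (edgeR adjusted p 0.101). Ret, the kinase that signals for this family, had no reads in the retained cells.

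The hedgehog list covers release, reception and targets of the ligand that Dhh encodes. Of 11 tested genes of this list none was higher and 1 was lower in myelinating than in immature cells (median log2 change 0.17). Ptch1, the receptor and a target of the pathway, had 28.5 and 39.2 CPM in immature and 24.2 and 34.3 CPM in myelinating cells (edgeR adjusted p 0.947). Gli1, a target, had 5 reads in 3 cells. The gene called was the transcription factor Gli3, named after its values were seen, with reads in 17 cells, 4.36 and 2.34 CPM in immature and 0 in both plates in myelinating cells, and with the plate as replicate block it did not pass (edgeR adjusted p 0.0552). Disp1, which releases lipid-bound hedgehog ligands and was named after its values were seen, was lower in cycling than in immature cells (edgeR adjusted p 0.00979), at 0 in both plates against 20.8 and 6.39 CPM.

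In the PDGF list none of 4 tested genes passed (median log2 change 1.78). Pdgfra, the receptor that binds PDGF-A, had 94 reads in 3 cells. In the VEGF list (median log2 change 0.19) 1 of 7 tested genes, Kdr, a main receptor of VEGF-A, was higher in myelinating than in immature cells (edgeR adjusted p 0.0326), and with the plate as replicate block (edgeR adjusted p 0.0683) and at Pmp22 limits of 20000 and 40000 CPM (0.0685 at most) it did not pass. Kdr, named after its values were seen, had reads in 24 cells, with 16.5 and 17.9 CPM in myelinating cells and 0 in both plates in immature cells. Of the 6 endothelial markers Pecam1, Cdh5, Tek and Emcn had no read in any retained cell, and the summed level of the list, nearly all of it Egfl7, was 27.9 and 36.5 CPM in immature and 107 and 78.0 CPM in myelinating cells. Nrp2, a coreceptor of VEGF and semaphorins named after its values were seen, was lower in intermediate than in immature cells by a log2 change of -1.36 (SE 0.250, edgeR adjusted p 0.0295).

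Among other growth factors 3 of 18 tested genes were lower in myelinating than in immature cells and none higher (median log2 change -1.61). Ptn, the heparin-binding factor pleiotrophin, had 816 and 635 CPM in cycling, 271 and 380 CPM in immature, 18.2 and 20.6 CPM in intermediate and 4.08 and 8.45 CPM in myelinating cells. It fell by 3.93 on the log2 scale from immature to intermediate cells (SE 0.364, edgeR adjusted p 0.00108). Mdk, the related midkine, had 75.5 and 118 CPM in immature and 6.96 and 3.75 CPM in myelinating cells and fell by 3.79 (SE 0.525, edgeR adjusted p 0.00355). Hbegf, a ligand of the EGF receptor, had 272 and 132 CPM in immature, 13.1 and 22 CPM in intermediate and 28.8 and 29.9 CPM in myelinating cells and fell by 3.39 from immature to intermediate cells (SE 0.435, edgeR adjusted p 0.00565). Fst, the activin inhibitor follistatin, likewise chosen with its values known, was higher in cycling than in immature cells by a log2 change of 1.10 (SE 0.204, edgeR adjusted p 0.0278).

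**Figure D5:**
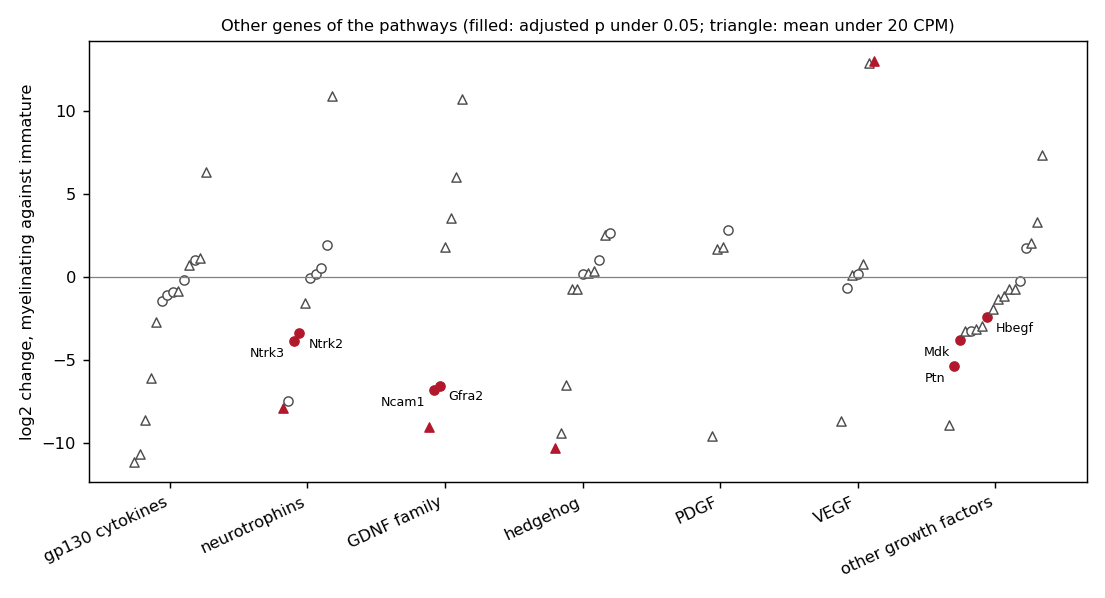
Log2 change from immature to myelinating cells (vertical) for the 71 tested genes of the 7 pathway lists, filled where the edgeR adjusted p was under 0.05, with triangles for genes under a mean of 20 CPM. Of the 11 filled points 10 lie below 0, and the most extreme values belong to genes with few reads.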

How the data were processed

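Reads of 768 single SCs were analysed from the deposited table of raw counts per gene and well. The authors aligned reads with STAR 2.6.1c to GRCm38.p5 and counted them with featureCounts, per the labels, while the methods of the study name an Ensembl release together with an earlier STAR version and a human build, although the identifiers are of mouse. The strand setting used for counting is not given in the sources used here, and Smart-Seq2 does not mark strand. Rows were matched by Ensembl identifier. Of 25700 rows 25587 had a symbol, and the 113 others held 0.0916% of reads. Coordinates and overlaps are from GENCODE vM21 (GRCm38), not from the annotation used for counting. No molecular identifiers were used, so intervals and limits cover counting error only.

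Wells under 1500 detected genes and the 4 corner wells of each plate were left out (113 wells). No doublet caller was run. Counts were summed per plate and state (8 sums) and fitted with edgeR 4.0.16 in R 4.3.3 (quasi-likelihood test, TMM, filterByExpr, 13892 genes, Benjamini-Hochberg adjustment over all of them, threshold 0.05) without a plate term. The 12 genes of the state rule stayed in library sizes but were not tested. The common dispersion was 0.713 with 4 residual degrees of freedom. Each SE of a log2 change was derived from the test, as its absolute value divided by the square root of the quasi-likelihood F statistic. For Cntf and Zfp91 no p is given against myelinating cells. The script was tested on simulated data. Shares of cells have exact Clopper-Pearson intervals at 95%, and a count of 0 has a limit of 3 counts. A gene was most like a member by the smaller Pearson r of the plates, among genes with reads in 10% of cells of each plate. Alternatives were DESeq2 1.42.0, other scalings, no filter, other limits, thinning to 100000 reads and the plate as a block.

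Pathway genes were named where they passed in myelinating against immature cells with a mean of at least 20 CPM and the same direction in both plates, at most 4 per list. Members and lists were chosen with earlier results of these data known. Genes named outside this rule are said to be, or stand for a receptor, ligand or target of a member. Because a plate's 4 sums share its pool of animals, they are paired by plate number. Plate differences of the 6 pairs of states correlated over 1990 genes of at least 100 CPM with r from -0.01 to 0.12.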

Additional observations from a re-analysis of the deposited data

Results flagged for a closer look

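The 113 wells left out of the comparisons also held reads of members. Dhh had 956 reads in 15 of these wells, Zfp91 415 in 8, Pdgfa 373 in 3 and Cntf 149 in 2. Over all reads of those wells, Dhh stood at 129, Zfp91 at 55.8, Pdgfa at 50.2 and Cntf at 20.03 CPM, each below its level in the retained cells (261, 147, 120 and 121 CPM). Vegfa had 16 reads there, all of them in 2 corner wells, at 2.15 CPM beside 0.514 CPM in the retained cells. The labels describe no control wells, so these levels have nothing to be set against.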

How the results depend on the processing

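Counts of genes past the threshold stayed within 1.5 times of those reported under 9 of the 12 alternatives for intermediate against immature and myelinating against intermediate cells. Under DESeq2 the counts were 937, 655, 1514 and 1345 (intermediate against immature, myelinating against intermediate, myelinating against immature, cycling against immature), and with no filter on low counts 690, 439, 1201 and 854. Thinned cells gave 477 for intermediate against immature and 208 for myelinating against intermediate cells. Pathway genes past the threshold numbered 21 under DESeq2, 21 with no filter and 17 in thinned cells, against 11. With the plate as replicate block the counts were 255, 94, 674 and 268. Under it 9 pathway genes and no tested member passed, and beyond Gli3 and Kdr the block changed no call of a named gene. Cntf and Zfp91 were not tested against myelinating cells. Among the members tested, Dhh was the only one that passed under any alternative. For intermediate against immature cells it passed under DESeq2, with no filter and at a Pmp22 limit of 20000 CPM (1 member each). For myelinating against immature cells it passed under DESeq2 and with no filter (1 member each). Of the pathway genes named, Gfra2, Gfra3 and Kdr did not pass at that Pmp22 limit, Kdr also not at 40000 CPM and Gfra3 also not at a minimum of 2500 genes (edgeR adjusted p up to 0.0818 for Gfra2, 0.0612 for Gfra3 and 0.0685 for Kdr).

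Directions turned only for changes that did not pass. For Cntf the log2 change against immature cells became -0.59 in intermediate and -0.50 in cycling cells at an Ncmap limit of 50 CPM and -0.25 in cycling cells after thinning. With either plate left out, cycling against immature cells gave -0.996 to 1.58 for Cntf, -0.49 to 1.77 for Zfp91, -0.37 to 0.0234 for Dhh and -0.90 to 0.77 for Vegfa, and Dhh ran from -0.27 to 0.0922 for myelinating against intermediate cells. Library size alone gave -0.13 for Pdgfa and -0.0205 for Vegfa in myelinating against immature cells. Vegfa further gave -0.34 there after thinning, 0.27 for intermediate against immature cells at a minimum of 2500 genes, and -0.48 for cycling against immature cells with the replicate block. The log2 change of Zfp91 reads beyond Cntf was -0.28 for intermediate against immature cells after thinning, -0.0602 for myelinating against intermediate cells at a Pmp22 limit of 20000 CPM, and with either plate left out it ran from -0.22 to 0.81 for myelinating against intermediate, from -0.16 to 1.65 for myelinating against immature and from -0.34 to 1.78 for cycling against immature cells. The causes were not tested.

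Thinning changed the CPM of Zfp91 reads beyond Cntf to 19.3 in intermediate and 35.5 in myelinating cells. With 1 plate left out this quantity ran from 22.8 to 43.9 CPM in cycling, 13.2 to 31.5 in immature, 21.4 to 30.3 in intermediate and 21.6 to 32.4 in myelinating cells. Counting cells only from 5 reads on lowered the share with Zfp91 to 17.1% of immature and 25.5% of intermediate cells, with Dhh to 65.8% and with Pdgfa to 39.9% of immature cells, and thinning gave 63.9% of myelinating cells with Zfp91 and 42.2% of immature cells with Pdgfa. The rise of Cntf into myelinating cells kept its direction under the 12 alternatives, with log2 changes from 3.48 to 5.30 against intermediate and from 4.70 to 5.72 against immature cells. Its SE was larger under some of them. Against intermediate and immature cells it was 1.55 and 1.56 at a minimum of 2500 genes, and 1.47 and 1.43 at an Ncmap limit of 50 CPM. With 1 plate left out no residual degrees of freedom remain, so no test was possible. Few cells limit the values of Bdnf, with reads in 2 cells, of Vegfa, with reads in 15, and of Cntf outside the myelinating state.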
